A study of Rattus norvegicus with 15 samples.

Results

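Glutathione S-transferase P (Gstp1), gamma-glutamyl transferase 1 (Ggt1), microsomal epoxide hydrolase (Ephx1), the aflatoxin aldehyde reductase Akr7a3, the drug transporter Abcb1b and the phospholipid-binding protein annexin A5 (Anxa5) were followed in rat liver tumours and in the liver around them. They were taken as the probes whose single gene symbol in the platform annotation is one of these 6, which gave 1 probe for each gene, 6 of the 3757 probes on the array and 6 of its 3400 named genes. Of the 6 genes 4 encode enzymes. Abcb1b is a membrane transporter and Anxa5 binds phospholipid in the presence of calcium. Liver RNA came from male Fischer344 rats (strain given as Fischer for control 1) after 70 weeks of feeding. Normal liver from a basal diet gave the 5 control samples. A choline-deficient, L-amino acid-defined diet had been fed for the remaining 10: 5 were hepatocellular carcinomas and 5 were non-cancerous cirrhotic tissue surrounding such tumours, called cirrhotic here. All groups share sex, strain and time on the diet, and the diet was given to every rat with a tumour, so diet and tissue state cannot be told apart against the controls. The tissue was whole, so fewer cells of a type and less RNA per cell cannot be told apart either. The labels leave unsaid whether each sample is its own animal and whether a tumour and a cirrhotic sample of the same number come from 1 rat. A p-value here therefore measures the spread among the samples as deposited, which may be technical.

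Feeding a choline-deficient diet to rats leads through fatty change and regeneration to small clones of altered hepatocytes, the preneoplastic foci, and later to carcinoma. Foci are recognised in tissue sections because they switch on detoxifying enzymes that normal hepatocytes hold at a low level or in another amount. Gstp1, which joins glutathione to electrophiles, is the classical positive marker, and Ggt1, which cleaves extracellular glutathione, is the older histochemical one. Ephx1 hydrolyses reactive epoxides, Akr7a3 reduces toxic dialdehydes, and Abcb1b pumps xenobiotics out of the cell. Several of these genes respond to the transcription factors Nrf2 and AP-1.

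Promoter sequence was read for all 6 genes from RefSeq (assembly GRCr8), in windows from 250 bases before to 50 bases after the gene start, to see which hold the letters TGACTCA (an AP-1 type element) or TGACNNNGC (the core of an antioxidant response element), on either strand. The motifs overlap when TGACTCA is followed by GC. TGACTCA occurs in 4.63% of 33469 windows of 300 bases, and TGACNNNGC in 12.1%. Windows of Gstp1 and of 1 of the 2 Ephx1 gene starts held both, and those of the other Ephx1 start, Ggt1, Abcb1b, Akr7a3 and Anxa5 held neither. A match describes these letters only, and no match draws nothing about a factor. The 250 bases before the start are shown for the windows with a match, 5′ to 3′ on the gene's strand, because they let the pair of genes with the motif be set beside their values; capitals mark the motif matches, on the lower strand in Ephx1. They lie on the minus strand at chr1:210769706-210769955 and chr13:95263118-95263367.
Gstp1: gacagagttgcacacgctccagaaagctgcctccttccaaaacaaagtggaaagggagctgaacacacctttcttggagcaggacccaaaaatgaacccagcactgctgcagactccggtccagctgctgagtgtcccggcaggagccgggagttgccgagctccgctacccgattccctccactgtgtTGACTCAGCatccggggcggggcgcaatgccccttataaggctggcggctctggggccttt
Ephx1: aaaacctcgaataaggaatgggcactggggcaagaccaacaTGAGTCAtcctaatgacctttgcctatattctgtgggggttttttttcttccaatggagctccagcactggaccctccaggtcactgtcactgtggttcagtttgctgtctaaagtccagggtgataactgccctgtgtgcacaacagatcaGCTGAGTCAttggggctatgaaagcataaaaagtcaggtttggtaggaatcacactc
In Gstp1 the match TGACTCAGC spans positions -61 to -53 from the gene start. In Ephx1 the same 9 letters span positions -57 to -49 on the opposite strand, and a further TGACTCA spans -209 to -203.

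Values below are normalized log2 ratios, in which 0 is near the median of that probe and a step of 1 is a doubling. They compare samples for 1 gene and say nothing of which gene is the more abundant. The lower limit of the deposited ratios, 0.01, was not reached by any of the 6 probes, although 229 probes of control 1 and 209 of cirrhotic 1 sat at it, against 0 to 76 on each of the other arrays. On the log2 scale the median half-width of a 95% interval of a difference was 1.27. Hepatocyte markers stood apart in some samples: their mean over the 12 measured of 14 fixed genes lay between -1.45 and 0.26 in controls, between -1.63 and 1.33 in cirrhotic liver and between -0.38 and 1.30 in carcinoma, where it was 1.01 in carcinoma 1 and 1.30 in carcinoma 5.

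Gstp1 did not separate the tissues. In control liver the normalized log2 ratios of Gstp1 were 1.55, -0.84, 1.19, -0.98 and -0.35 in samples 1 to 5. In cirrhotic liver they were -0.97, -0.38, 1.39, 1.73 and 1.31, and in carcinoma 1.15, -0.02, -0.14, -0.42 and 1.28. Controls 1 and 3 thus lay among the high diet samples, cirrhotic 4 was the only diet sample above every control, and the groups overlapped throughout. The spread in control liver was already wide for this marker, with an SD of 1.18, against a median SD of 0.91 over all probes. Cirrhotic minus control was 0.50 (95% interval -0.90 to 1.90), carcinoma minus control 0.25 (-1.14 to 1.65) and carcinoma minus cirrhotic -0.25 (-1.65 to 1.15), with limma adjusted p = 0.813, 0.949 and 0.894. The first of these was 0.23 without cirrhotic 4, 0.86 without cirrhotic 1 and 1.18 without control 1 and cirrhotic 1 together.

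Ggt1 was higher in most of the cirrhotic samples than in most of the others. Control values of Ggt1 were -0.35, -1.10, 0.47, -1.01 and 0.98. Cirrhotic values were -0.04, 0.87, 1.03, 0.76 and 0.90, and carcinoma values -0.03, -0.19, -0.24, -1.20 and 0.84. In 4 of the 5 cirrhotic samples Ggt1 lay within a narrow band above 0.76, cirrhotic 1 fell below it, and control 5 and carcinoma 5 reached into the same band. Cirrhotic minus control was 0.91 (-0.14 to 1.96, limma adjusted p = 0.554) and carcinoma minus cirrhotic was -0.87 (-1.92 to 0.18, limma adjusted p = 0.443). Carcinoma minus control was 0.04 (-1.01 to 1.09).

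Ephx1 had the highest tumour mean among the 6 genes relative to control liver. Control values of Ephx1 were -0.03, -0.53, -0.55, -0.35 and -0.32, an SD of 0.21, and 0.745% of all probes had a smaller SD in control liver. Cirrhotic values were 0.72, -0.79, 0.34, 0.44 and -0.02, and carcinoma values were 2.06, 1.45, 0.44, -0.06 and 1.94. All of the carcinomas but carcinoma 4 lay above every control, and carcinomas 1, 2 and 5 lay above every cirrhotic sample as well. The mean ± SD of 5 samples was 1.17 ± 0.94 in carcinoma, 0.14 ± 0.58 in cirrhotic tissue and -0.36 ± 0.21 in controls. Carcinoma minus control was 1.52 (95% interval 0.42 to 2.63, 2.87-fold, limma adjusted p = 0.564), and it did not pass over all probes. Without carcinomas 1 and 5, an alternative chosen after seeing the data, that difference was 0.91 (limma adjusted p = 0.941).

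Akr7a3 reached the highest values of the set and was the most scattered in the diet groups. Its control values were 0.07, -1.13, -0.03, -2.53 and -0.21. Cirrhotic values were -0.05, 0.31, -1.13, 1.10 and 2.36, and carcinoma values were 1.63, 0.69, -0.62, -1.28 and 2.31. Cirrhotic 5 and carcinoma 5 stood at nearly the same level and carcinoma 1 came next, whereas cirrhotic 3 and carcinoma 3 lay below 3 of the 5 controls and carcinoma 4 below 4 of them. The SD of Akr7a3 was 1.31 in cirrhotic liver and 1.50 in carcinoma, larger than that of 80.3% and 86.6% of all probes. Cirrhotic minus control was 1.28 (-0.18 to 2.75, limma adjusted p = 0.554) and carcinoma minus control 1.31 (-0.15 to 2.78, limma adjusted p = 0.714). Both moved with single samples: the first was 0.84 without cirrhotic 5, and the second 0.86 without carcinoma 5.

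Anxa5 was the only one of the 6 whose cirrhotic values all lay above all control values. In control liver Anxa5 stood at -0.03, -1.46, -1.54, -1.29 and -0.06. In cirrhotic liver it stood at 0.37, 0.47, 0.03, 0.55 and 0.16, and in carcinoma at 1.86, -0.97, -0.24, -0.94 and 1.03. The gap between the groups was small, since the lowest cirrhotic sample was 0.03 and the highest control -0.03. Cirrhotic samples were close to one another, with an SD of 0.22 that was smaller in 0.665% of probes, while the carcinomas split into carcinomas 1 and 5, above all other samples, and carcinomas 2 to 4, within the control range. Cirrhotic minus control was 1.19 (95% interval 0.01 to 2.36, limma adjusted p = 0.511), and carcinoma minus control was 1.02 (-0.15 to 2.20, limma adjusted p = 0.715; 0.58 without carcinoma 1).

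Abcb1b was the 1 marker with a lower mean in carcinoma than in either other tissue. Control values of Abcb1b were -0.09, 0.31, 0.03, -1.09 and 1.02. Cirrhotic values were -0.17, 1.37, 0.47, 0.64 and 1.62, and carcinoma values were -0.63, -0.02, -1.32, -0.78 and -0.72. No carcinoma was above 0, and cirrhotic 2 and 5 were above every control. Carcinoma minus cirrhotic was -1.48 (95% interval -2.49 to -0.47, a 2.79-fold lower ratio, limma adjusted p = 0.234), with an overlap only between carcinoma 2 and cirrhotic 1. Cirrhotic minus control was 0.75 (-0.26 to 1.77) and carcinoma minus control -0.73 (-1.74 to 0.29), and none of these passed over all probes. Single controls moved both: the first was 0.48 without control 4, and the second -0.48 without control 5. Whether the probe tells Abcb1b from the closely related Abcb1a was not tested.

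**Figure D1:**
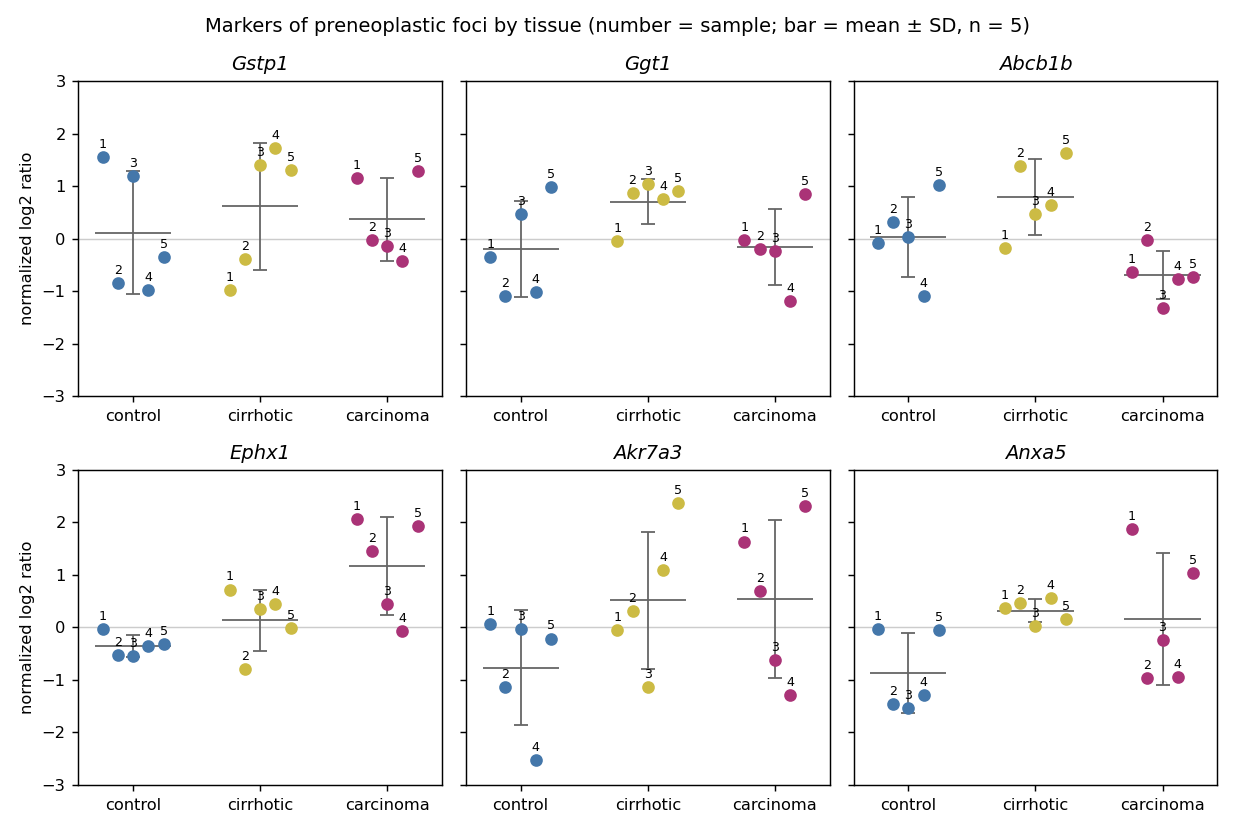
Normalized log2 ratio (y axis) of each marker in control, cirrhotic and carcinoma samples (x axis), with the sample number at each point and the mean and SD (n = 5) in grey. Ephx1 runs from a tight control group, SD 0.21, to carcinomas 1 and 5 at 2.06 and 1.94, and no carcinoma is above 0 for Abcb1b.

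No marker passed an adjusted p of 0.05 in limma in any comparison: 0 of 6 for each, where 0% of the 3757 probes passed. At an unadjusted p under 0.05, 1 of 6 was higher (Anxa5) and 0 lower in cirrhotic than in control liver, where 4.02% of all probes were higher and 5.62% lower. For carcinoma against control 1 of 6 was higher (Ephx1) and 0 lower, beside 3.65% and 3.75% of probes. For carcinoma against cirrhotic liver 0 were higher and 1 of 6 lower (Abcb1b), beside 6.95% and 6.28%. Groups were separated without overlap for 1 of 6 markers between cirrhotic and control liver (Anxa5, higher in cirrhotic liver), beside 0.665% of all probes higher and 0.985% lower. They were separated for 0 of 6 in carcinoma against control, beside 1.06% of probes higher and 0.825% lower, and for 0 of 6 in carcinoma against cirrhotic liver, beside 1.25% and 1.46%. Cirrhotic minus control was above 0 for 6 of 6 markers, with a median of 0.83, beside 50.7% of all probes and their median of 0.02. Carcinoma minus control was above 0 for 5 of 6, with a median of 0.64, beside 50.1% of all probes, and carcinoma minus cirrhotic was above 0 for 2 of 6, with a median of -0.21, beside 49.3%. The first 2 comparisons share the control samples, so their values are given side by side and are not independent.

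**Figure D2:**
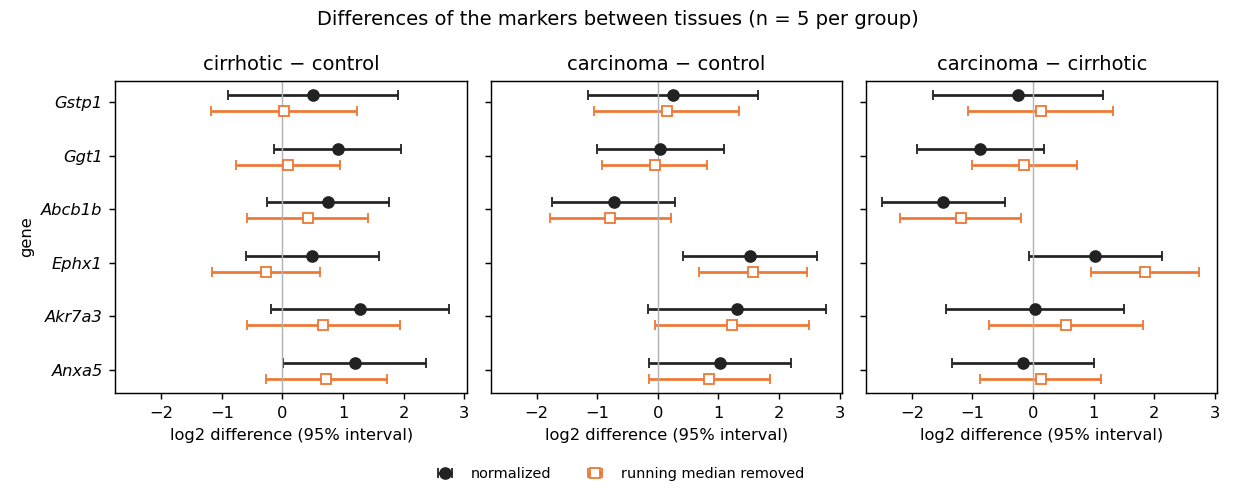
Log2 difference with its 95% interval (x axis) of each marker (y axis) in the 3 comparisons, from the normalized ratios (filled circles) and after a running median along the probe order was removed (open squares). In cirrhotic against control liver the 6 filled circles lie above 0 and move towards 0 when the running median is removed, while for Ephx1 carcinoma minus control goes from 1.52 to 1.57 and carcinoma minus cirrhotic from 1.03 to 1.84.

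The deposited ratios shift in stretches along the probe numbering, and part of the cirrhotic difference of each marker was shared with probes of neighbouring numbers. The difference between cirrhotic and control liver that was lost by removing a running median over 50 probes on each side was 0.82 of 0.91 for Ggt1, 0.48 of 0.50 for Gstp1, 0.46 of 1.19 for Anxa5 and 0.61 of 1.28 for Akr7a3. For Ephx1 it was 0.77 against a difference of 0.49, which left -0.27 (-1.17 to 0.62), and for Abcb1b it was 0.34 of 0.75. The separation of Anxa5 between cirrhotic and control liver ended, with 0.73 (-0.27 to 1.72) left, in a setting where 0.213% of all probes were separated as higher. What lies behind these shifts was not tested. Ephx1 in the tumour did the reverse: with the running median removed all 5 carcinomas lay above all 5 controls and above all 5 cirrhotic samples. Its carcinoma minus control was then 1.57 (0.67 to 2.46, limma adjusted p = 0.419) and its carcinoma minus cirrhotic 1.84 (0.95 to 2.74, limma adjusted p = 0.446), against 1.03 (-0.07 to 2.13, limma adjusted p = 0.405) before the removal, when the groups overlapped. In that setting 1.28% and 0.745% of all probes were separated as higher in these 2 comparisons. Abcb1b kept a carcinoma minus cirrhotic of -1.20 (-2.19 to -0.20).

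The question of whether the markers were high in the same samples was answered by counting, in each diet sample, the markers above the highest of the 5 control values. Among the carcinomas the count was 3 of 6 in carcinoma 1 and in carcinoma 5, and in both these were Ephx1, Akr7a3 and Anxa5. It was 2 in carcinoma 2 (Ephx1 and Akr7a3), 1 in carcinoma 3 (Ephx1) and 0 in carcinoma 4. Of all probes, 20.7% in carcinoma 1, 18% in carcinoma 2, 17.4% in carcinoma 3, 15.9% in carcinoma 4 and 20.2% in carcinoma 5 were above their highest control. Carcinomas 1 and 5 were also the 2 highest of the 5 tumours for 5 of the 6 markers, Abcb1b being the exception, as they were for 16.8% of all probes. With the running median removed this held for 4 of the 6, Ggt1 leaving, and for 14.5% of all probes. Carcinoma 4 was the lowest tumour for Gstp1, Ggt1, Ephx1 and Akr7a3. The counts depended on the scale: as deposited they were 4 and 5 of 6 in carcinomas 1 and 5, where 28.7% and 27.6% of all probes were above their control range, and with the running median removed they were 3 in each of carcinomas 1, 3 and 5, 2 in carcinoma 2 and 1 in carcinoma 4. The pair of tumours was chosen after its values were seen, and the count is a description.

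In cirrhotic liver the markers that passed the control range differed from sample to sample. Cirrhotic 4 had 4 of 6 above it (Gstp1, Ephx1, Akr7a3 and Anxa5), where 20.3% of all probes were, and cirrhotic 5 also had 4 (Abcb1b, Ephx1, Akr7a3 and Anxa5), where 17.4% were. Cirrhotic 2 had 3 (Abcb1b, Akr7a3 and Anxa5; 16.1% of probes), cirrhotic 3 had 3 (Ggt1, Ephx1 and Anxa5; 15.5%) and cirrhotic 1 had 2 (Ephx1 and Anxa5; 20.6%). Ephx1 passed it in cirrhotic 5 by a small margin, at -0.02 against a highest control of -0.03. With the running median removed the counts were lower in 4 of these 5 samples: 1, 3, 0, 2 and 2 for cirrhotic 1 to 5. No cirrhotic sample and no carcinoma had all 6 markers above the control range.

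**Figure D3:**
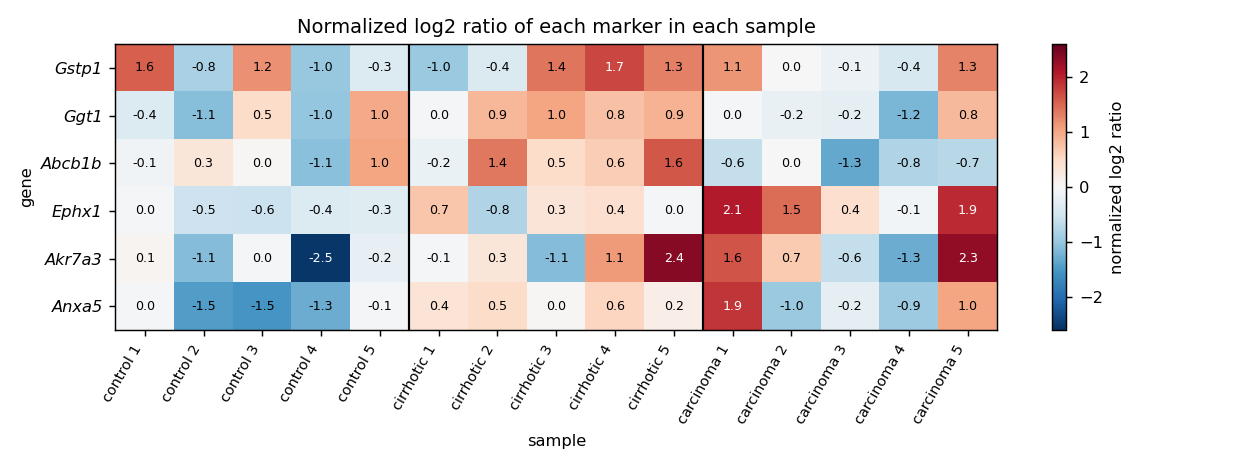
Normalized log2 ratio (colour, and number in each cell) of the 6 markers (rows) in the 15 samples (columns). Carcinomas 1 and 5 are red for Gstp1, Ephx1, Akr7a3 and Anxa5 and blue for Abcb1b, while carcinoma 4 is blue or near 0 for all 6.

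Across the 15 samples most pairs of markers varied in the same direction. Of the 15 pairs, 14 had a Pearson r above 0 and 8 had r above 0.5, where 49.3% and 8.17% of all pairs of probes did, and these are descriptions over samples that share array-wide shifts, with no test. The closest pair was Akr7a3 with Anxa5 (r = 0.67, Spearman rho = 0.65), followed by Ggt1 with Abcb1b (r = 0.62, rho = 0.67) and Gstp1 with Akr7a3 (r = 0.61, rho = 0.59). Ephx1 and Anxa5 had r = 0.61, which was 0.19 over the 13 samples left without carcinomas 1 and 5, so this relation rests on those samples. Akr7a3 and Anxa5 had 0.52 over the same 13 samples and 0.53 over all 15 with the running median removed. The other pairs named here were lower after that removal: Ggt1 with Abcb1b had 0.42, Gstp1 with Akr7a3 0.23 and Ephx1 with Anxa5 0.27. Ephx1 and Abcb1b were the 1 pair with a negative r, -0.40, and it was -0.78 with the running median removed. Gstp1 and Ephx1, the pair with TGACTCA in the windows shown above, had r = 0.32 (rho = 0.31), and 0.10 without carcinomas 1 and 5. Over all 15 pairs the median r was 0.52, and 0.20 with the running median removed. After that removal no pair but Akr7a3 with Anxa5 had r above 0.5. Negative values were then also found for Ggt1 with Ephx1 (-0.31), Abcb1b with Anxa5 (-0.13), Gstp1 with Abcb1b (-0.04) and Gstp1 with Ephx1 (-0.02). The shares of all pairs of probes were not computed in that setting.

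The genes most like each marker over the 15 samples were found among all probes with 1 symbol, by Pearson r, and are named with no reading of shared function. For Gstp1 they were Pfkfb4 (r = 0.89), Cltb (0.88) and Omp (0.88), and for Ggt1 they were Scp2 (0.88), Gak (0.87) and Fabp2 (0.83). For Ephx1 they were Inppl1, Cilk1 and Prph (0.86 each), and for Akr7a3 they were Pnoc (0.92), Aqp2 (0.88) and Atp5mc2 (0.87). For Abcb1b they were Ldhc (0.95), Ptbp3 (0.89) and Slc6a18 (0.88), and for Anxa5 they were Tmsb10 (0.85), Tfam (0.83) and Foxa3 (0.79). These values are the highest among all named probes, and with the running median removed they lay between 0.50 (Ggt1 with Fabp2) and 0.87 (Abcb1b with Ptbp3).

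Other genes listed as inducible by Nrf2, not all of them detoxification genes, had differences on both sides of 0. Of 37 such genes 20 were measured, and 0 of 20 passed an adjusted p of 0.05 in limma in each comparison. At an unadjusted limma p under 0.05, 2 were higher and 2 lower in carcinoma than control, beside 3.65% and 3.75% of all probes. The 2 higher were Txnrd1, by 0.998 (0.103 to 1.89, limma adjusted p = 0.645), and Fth1, by 1.29 (0.088 to 2.49, limma adjusted p = 0.656). The 2 lower were Aldh3a1, given below, and Gsta4, which differed by -1.80 (-3.25 to -0.35, limma adjusted p = 0.564). In cirrhotic against control liver 1 was higher and 3 lower, beside 4.02% and 5.62%. Their median carcinoma minus control was 0.24, beside 0.00 over all probes. Aldh3a1, an aldehyde dehydrogenase also known from liver tumours, differed by -1.82 (-3.08 to -0.56, limma adjusted p = 0.564) between carcinoma and control and by -1.90 between cirrhotic and control liver. Hmox1, the inducible haem oxygenase, differed by -0.95 (-2.02 to 0.12) and -1.44 (-2.51 to -0.37) in the same comparisons. Nqo1, a quinone reductase, differed by 0.05 (-1.15 to 1.24) and -0.51, Gclc, the catalytic subunit of the enzyme that starts glutathione synthesis, by 0.40 and 0.50, and Abcc3, an export pump for conjugates, by 0.53 and 0.49.

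Counted by sample on the normalized ratios, these genes put the tumours in the order that the markers gave, and so did all probes. In carcinoma 1, 9 of the 20 were above their highest control value, in carcinoma 5, 7, in carcinoma 2, 6, in carcinoma 3, 5 and in carcinoma 4, 2. Of all probes, 20.7%, 20.2%, 18%, 17.4% and 15.9% were above theirs in carcinomas 1, 5, 2, 3 and 4. With the running median removed the marker counts were 3, 3, 2, 3 and 1 in those carcinomas, which is another order. Hepatocyte markers were also most often high in carcinomas 1 and 5: 7 of 12 in carcinoma 1 and 9 of 12 in carcinoma 5 were above the control range, against 2 or 3 in each of the other carcinomas. In cirrhotic 1 to 5 the hepatocyte markers above it numbered 8, 0, 5, 6 and 1 of 12, beside 2, 3, 3, 4 and 4 of 6 focus markers. The shares of all probes there were 20.6%, 16.1%, 15.5%, 20.3% and 17.4%. The part of hepatocyte content in the marker values was not tested.

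**Figure D4:**
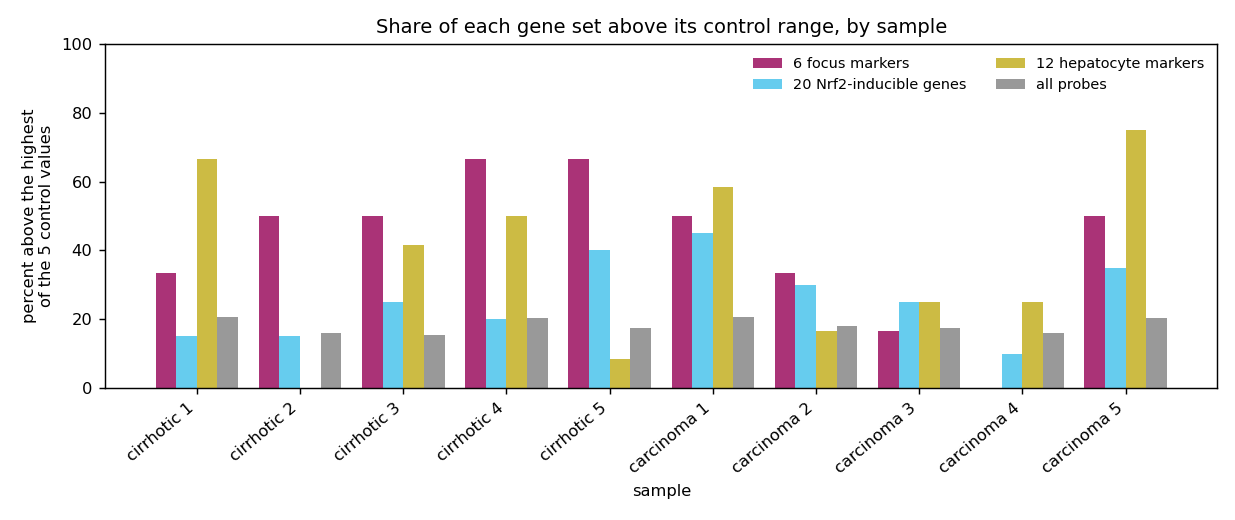
Percent of each gene set above the highest of its 5 control values (y axis, from 0) in each diet sample (x axis), for the 6 focus markers, 20 Nrf2-inducible genes, 12 hepatocyte markers and all probes. Carcinomas 1 and 5 have the tallest bars of each set among the tumours, all probes included (20.7% and 20.2%). Each has 3 of the 6 focus markers above the control range, and carcinoma 4 has none.

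Bile ducts also carry Ggt1 and Gstp1, and their markers were given the same description. Of 11 bile duct markers 7 were measured, and the mean of these ran from -0.57 to 0.39 in controls, from -0.14 to 0.64 in cirrhotic liver and from -0.77 to 0.65 in carcinoma. It was 0.23 in carcinoma 1 and 0.65, the highest of the tumours, in carcinoma 5. The keratins Krt19 and Krt7, which define bile duct cells, were on the list but had no probe with 1 gene symbol. The part of bile ducts in the values of Ggt1 and Gstp1 was not tested. Macrophage markers (5 measured of 13) had a mean of -0.30 in carcinoma 1 and 1.14 in carcinoma 5, the lowest and the highest tumour.

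Relatives of the markers in the same gene families mostly had lower ratios in the tumour. These were 21 other genes whose symbols start with the family stems of the markers. The stems cover glutathione S-transferases, gamma-glutamyl transferases, ABC subfamily B transporters, epoxide hydrolases, aldo-keto reductases and annexins. Of the 21, 5 had a carcinoma minus control above 0, beside 50.1% of all probes. The median of the 21 was -0.55, beside 0.00 over all probes, and 0 passed an adjusted p of 0.05 in limma. At an unadjusted limma p under 0.05, 0 were higher and 2 lower, beside 3.65% and 3.75% of all probes. Gsta1, Gsta4 and Gstm2 are also on the Nrf2-inducible list above. Ephx2, the soluble epoxide hydrolase, differed by -0.39 (-1.31 to 0.53) where Ephx1 differed by 1.52. Anxa1 differed by -0.75 (-1.77 to 0.26) where Anxa5 differed by 1.02, and Ggt5 by 0.73 (-0.57 to 2.04) where Ggt1 differed by 0.04. Abcb4, the phosphatidylcholine transporter of the bile canaliculus, had the same pattern of signs as Abcb1b, with 0.54 in cirrhotic minus control and -1.03 (-2.16 to 0.10) in carcinoma minus cirrhotic. Akr1b1, an aldose reductase, differed by -1.54 (-2.95 to -0.13) between carcinoma and control. Akr7a2, of the same subfamily as Akr7a3 and added after its values were seen, differed by 1.14 (-0.94 to 3.23) in that comparison and by 1.25 (-0.84 to 3.33) between cirrhotic and control liver. Differences between a marker and its relative were not tested.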

How the data were processed

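Liver RNA of 15 samples was measured on 15 arrays. The deposited values are a linear ratio of each probe to its own median over the arrays, as the values show (every probe median is 1 when rounded to 6 digits). What array, dyes, scanner and software were used is not given in the sources used here. Groups came from the sample titles, and 0 columns were left aside. Of 3757 probes 3440 had 1 gene symbol, 4 several and 313 none in the platform annotation. All 6 markers matched RefSeq (GRCr8) by gene identifier.

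The members and gene lists were chosen with earlier results of these data known. Ratios were quantile-normalized over the arrays, put on the log2 scale and fitted for all probes and samples with group as the only term (limma 3.58.1, R 4.3.3, lmFit and eBayes with trend, two-sided, Benjamini-Hochberg over 3757 probes, threshold 0.05). No filter on low values was applied, since a ratio to the probe's own median shows no brightness. Where a list gene had several probes, the one varying least within groups was taken. The text names the 6 markers, the list genes fixed for naming that were measured, and per marker the 3 genes with the highest r. Akr7a2, Txnrd1, Fth1, Gsta1, Gsta4 and Gstm2 were named in addition, after their values were seen. The same replicate numbers occur in each group and were not used as pairs, since the labels state no pairing. Of 15 same-numbered pairs, 6 had deviations correlated above 0.1 (range -0.34 to 0.39). The highest r, 0.39, was that of cirrhotic 1 with carcinoma 1. These pairs include controls set against diet samples, and differently numbered samples were not compared, so the values cannot decide whether samples are paired. On simulated data for carcinoma against control (3757 probes, 200 changed, 5 draws per size) the fit recovered 0% of probes changed 2-fold, 2.6% of 4-fold, 79.1% of 8-fold and 96.4% of 16-fold changes. Alternatives were the deposited scale, median scaling, a running median over 50 probes on each side removed, a pseudocount of 0.1, a floor at the 25th percentile, a filter, fewer groups, a replicate block, no trend, array weights and samples left out. Figures used matplotlib 3.10.9.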

Additional observations from a re-analysis of the deposited data

Results flagged for a closer look

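Ggt1 in cirrhotic 1 had a normalized log2 ratio of -0.043, far below the other 4 cirrhotic samples, which lay between 0.76 and 1.03. Its gap to the nearest of them was 0.75 of the whole range of the group. Each of the 6 markers was looked at in each of the 3 tissues for a sample standing apart in this way, and chance gives about 1 in 20 such groups.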

How the results depend on the processing

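The number of markers past an adjusted p of 0.05 was 0 in every comparison under every alternative run, the replicate block included (0 with the block in each comparison; it changed no call). Over all probes 2 passed between carcinoma and cirrhotic liver without cirrhotic 5 and 1 without carcinomas 1 and 5, against 0 otherwise. Leaving out 1 sample gave a range of 0 to 2 there. The signs that changed belonged to differences whose intervals include 0. With the running median removed, carcinoma minus cirrhotic was 0.12 for Anxa5 and 0.12 for Gstp1, carcinoma minus control was -0.050 for Ggt1, and cirrhotic minus control was -0.27 for Ephx1. As deposited, carcinoma minus cirrhotic was 0.085 for Anxa5 and 0.15 for Gstp1, and with arrays scaled to 1 median 0.10 and 0.17. For Akr7a3 it was -0.16 with array weights, -0.11 without control 1 and cirrhotic 1, and -0.88 without carcinomas 1 and 5. Carcinoma minus control of Ggt1 was -0.013 with the floor, -0.0020 without control 1 and cirrhotic 1 and -0.31 without carcinomas 1 and 5, the last of which gave -0.27 for Gstp1. Leaving out 1 sample gave carcinoma minus cirrhotic from -0.40 to 0.49 for Akr7a3, from -0.59 to 0.11 for Anxa5 and from -0.61 to 0.033 for Gstp1, and carcinoma minus control from -0.20 to 0.33 for Ggt1 and from -0.019 to 0.60 for Gstp1. Differences of Ephx1 and Abcb1b in carcinoma kept their direction in all alternatives run. Markers above the control range numbered, with the running median removed, 3 in carcinoma 3, 1 in carcinoma 4 and 1, 0, 2 and 2 in cirrhotic 1, 3, 4 and 5, and in carcinoma 5 they numbered 5 as deposited and 5 with arrays scaled to 1 median. The causes were not tested. The number of arrays limits precision.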
